A study of Homo sapiens with 6 samples.

Results

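The human leukocyte antigen (HLA) genes and CD274, which encodes the immune checkpoint ligand PD-L1, were examined in 2 human non-small cell lung cancer lines. Every listed gene with a symbol that starts with HLA- was taken, antisense genes and pseudogenes left out, together with CD274. This gave 9 of the 6641 genes in the deposited table. They were the class I genes HLA-B and HLA-F, the 6 class II genes HLA-DRA, HLA-DRB1, HLA-DRB5, HLA-DQB1, HLA-DMA and HLA-DMB, and CD274. Other HLA genes and the class I light chain gene B2M were not analysed here. HCC827 is an established lung adenocarcinoma line with an activating mutation of EGFR. HCC827_Er is labelled as non-small cell lung cancer, and the series title sets resistant cells against parental ones. The study asks about resistance to inhibitors of EGFR and histone crotonylation. Each line had 3 libraries of total RNA, the labels give no drug, dose or time for either line, and they do not say whether HCC827_Er is 1 clone. Nothing in the labels says that a line's 3 libraries were grown as separate cultures. The p-values therefore cover the spread of these 6 samples, which may be technical.

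HLA class I molecules hold peptides of proteins made inside the cell and show them to CD8 T cells. Most cell types carry them, while class II molecules, which show peptides of the endosomal route to CD4 T cells, are mainly found on professional antigen-presenting cells and appear on lung epithelium and some carcinomas. HLA-DR is a pair of an alpha chain (HLA-DRA) and a beta chain (HLA-DRB1, and on some haplotypes also HLA-DRB5), HLA-DQB1 encodes the beta chain of HLA-DQ, and HLA-DMA and HLA-DMB form the editor that helps class II molecules exchange their peptides. PD-L1 binds the receptor PD-1 on T cells and restrains them, and interferon is a known inducer of all 3 kinds of gene.

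The values were FPKM, fragments scaled by transcript length and library size, so levels of different genes can be set side by side while sequencing depth is unknown. Listed FPKM summed to between 184633 and 224211 per library. Genes entered the tests with an FPKM of at least 1 in 3 or more libraries. They were compared by limma on log2(FPKM + 1), and a gene was called at a Benjamini-Hochberg adjusted p under 0.05 over all 5276 tested genes and a difference of at least 2-fold. The table is not a neutral sample of genes: 96.1% of listed genes had no overlap between the lines, 98.3% of tested genes had an adjusted p under 0.05, and 44.4% were called in 1 direction or the other. The members are therefore described mainly by the sizes of their differences.

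All 9 members had higher FPKM in every HCC827_Er library than in any HCC827 library. Of all listed genes 96.1% had no overlap, in either direction, and 2712 of the 5276 tested genes had a positive difference. Of the 8 that could be tested, 7 were called higher, HLA-DMB was not called and none was lower. In all, 24.7% of tested genes were called higher. The median log2 difference of the 8 was 1.47, against 0.43 over all tested genes. The ratio of mean FPKM, HCC827_Er over HCC827, ran from 1.87 for HLA-DMB to 42.4 for HLA-DRB5. In bulk RNA, more cells that carry a transcript and more transcript in each cell cannot be told apart.

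**Figure D1:**
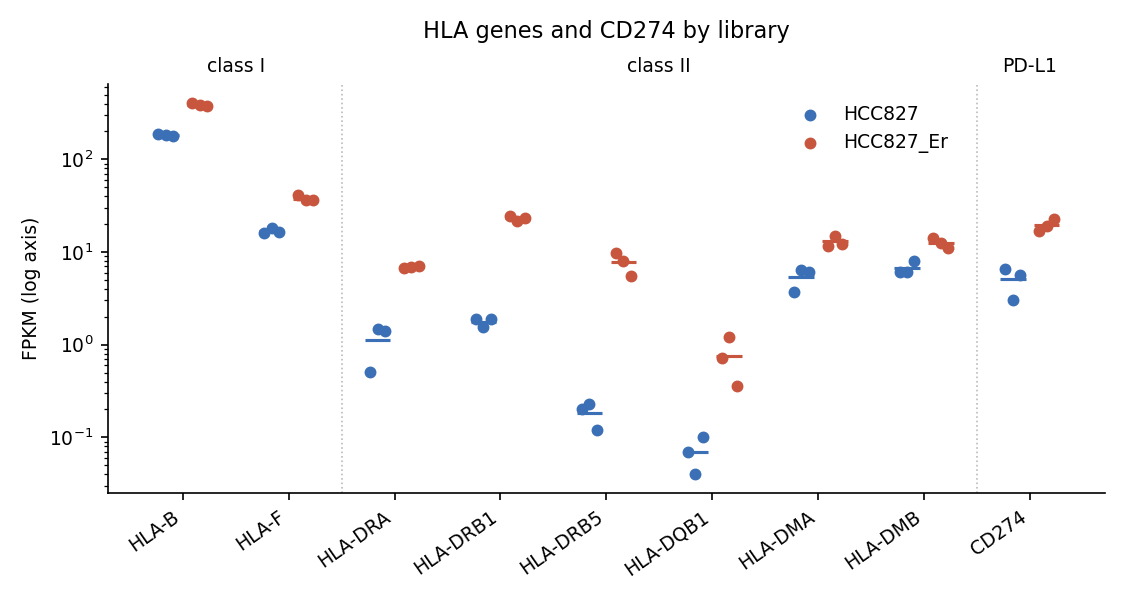
FPKM (log axis) of the 9 members in the 3 HCC827 libraries (blue) and the 3 HCC827_Er libraries (red); points are libraries and horizontal bars are means. The groups are apart for every gene, from 0.07 against 0.763 FPKM (means) for HLA-DQB1 to 184 against 390 FPKM for HLA-B, and the gap is widest for HLA-DRB1 and HLA-DRB5.

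Among the 8 tested members, the HLA-DR genes had the 3 largest differences on the log2(FPKM + 1) scale. With 5 as the added constant this order did not hold: CD274 (1.30) stood above HLA-DRB5 (1.29), and HLA-DRA (0.96) below HLA-B (1.06). Nor did it hold without replicate 1 of HCC827, where CD274 (1.98) stood above HLA-DRA (1.69). HLA-DRB1 (ENSG00000196126; chr6:32578769-32589848, minus strand, GRCh38 in GENCODE 29) was at 1.88, 1.54 and 1.91 FPKM in the HCC827 libraries and at 24.47, 21.75 and 23.30 FPKM in those of HCC827_Er. Each line was tight, and the HCC827_Er mean of 23.2 ± 1.36 FPKM was 13.0 times the HCC827 mean of 1.78 ± 0.206 FPKM (SD, n = 3). The log2 difference was 3.12 (SE 0.10, limma adjusted p = 1.89e-08), above that of 98.0% of tested genes.

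HLA-DRB5 (ENSG00000198502; chr6:32517343-32530287, minus strand), the beta chain gene beside it, was at 0.20, 0.23 and 0.12 FPKM in HCC827 and at 9.76, 8.03 and 5.54 FPKM in HCC827_Er. It was near the bottom of the scale in every HCC827 library, and its HCC827_Er libraries spread more widely than those of HLA-DRB1. The log2 difference was 2.86 (SE 0.18, limma adjusted p = 7.69e-07). HLA-DRB5 made up 9.51% ± 3.54 of the summed FPKM of both beta chain genes in HCC827 and 24.9% ± 4.98 in HCC827_Er (SD, n = 3). Not every haplotype carries HLA-DRB5, and reads of one beta chain gene can be counted for another. In the GENCODE 29 transcripts, 8.64% of the 50-base windows of HLA-DRB1 also occur in HLA-DRB5, and 8.42% the other way. With both rows summed to 1 gene the log2 difference was 3.43 (SE 0.11), from 1.96 ± 0.166 FPKM in HCC827 to 30.95 ± 2.88 FPKM (SD, n = 3).

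HLA-DRA (ENSG00000204287; chr6:32439842-32445046, plus strand), the shared alpha chain gene, has none of its 50-base windows in another HLA gene. It was at 0.51, 1.48 and 1.42 FPKM in HCC827 and at 6.74, 6.91 and 7.11 FPKM in HCC827_Er. The HCC827_Er libraries were close together, while replicate 1 of HCC827 was low. Its log2 difference was 1.93 (SE 0.19, limma adjusted p = 1.38e-05). With 5 in place of 1 as the added constant the value was 0.96 and the gene was not called. The beta chain genes together had 4.48 ± 0.532 times the FPKM of HLA-DRA in HCC827_Er, and between 1.20 and 4.08 times in the HCC827 libraries, where all these values were low.

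HLA-DQB1 (ENSG00000179344; chr6:32659467-32668383, minus strand) was the lowest member. It was at 0.07, 0.04 and 0.10 FPKM in HCC827 and at 0.72, 1.21 and 0.36 FPKM in HCC827_Er. Its groups did not overlap, but it did not reach the minimum FPKM and was not tested in the model as reported. With no minimum FPKM its log2 difference was 0.69 (SE 0.16, limma adjusted p = 0.00343), under the 2-fold minimum. The ratio of its means was 10.9, with HCC827 values far below the added 1.

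The HLA-DM genes differed less. HLA-DMA (ENSG00000204257; chr6:32948613-32969094, minus strand) was at 3.73, 6.39 and 6.16 FPKM in HCC827 and at 11.72, 15.06 and 12.28 FPKM in HCC827_Er. The difference of 1.15 (SE 0.18, limma adjusted p = 2.63e-04) was called. It rested on replicate 1 of HCC827, the lowest library: without it the difference was 0.94 and not called. HLA-DMB (ENSG00000242574; chr6:32934629-32941070, minus strand), its partner chain, was at 6.08, 6.05 and 7.92 FPKM in HCC827 and at 14.07, 12.52 and 10.93 FPKM in HCC827_Er. Its difference of 0.82 (SE 0.13, limma adjusted p = 3.02e-04) lay under the 2-fold minimum. The ratio of HLA-DMA to HLA-DMB was 0.816 ± 0.224 in HCC827 and 1.05 ± 0.195 in HCC827_Er (SD, n = 3), ranges that overlap.

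Class II promoters are known for an X box, bound by RFX, and a Y box, bound by NF-Y, on which the coactivator CIITA assembles. RefSeq promoters (GRCh38.p14, 250 bases before to 50 after the annotated start) were at hand for 8 of the 9 members, all but HLA-DRA. They were searched on both strands for the X box core written ACNGATGA, the Y box written CTGATTGG and an interferon-stimulated response element written GAAANNGAA, letters chosen after these promoters had been read. The 5 class II promoters are shown from 140 to 20 bases before the start because each holds the X box letters there. They are written 5′ to 3′ on the gene's strand, in capitals where any of the letters searched matched.
HLA-DRB1 (chr6:32589869-32589988, minus strand): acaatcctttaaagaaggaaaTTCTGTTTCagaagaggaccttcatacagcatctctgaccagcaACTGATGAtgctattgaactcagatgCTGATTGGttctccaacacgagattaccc
HLA-DRB5 (chr6:32530308-32530427, minus strand): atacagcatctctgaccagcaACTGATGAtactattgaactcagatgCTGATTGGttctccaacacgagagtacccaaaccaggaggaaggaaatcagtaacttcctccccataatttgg
HLA-DQB1 (chr6:32666678-32666797, minus strand): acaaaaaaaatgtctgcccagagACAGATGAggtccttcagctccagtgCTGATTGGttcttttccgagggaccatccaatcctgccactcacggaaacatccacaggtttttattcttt
HLA-DMA (chr6:32953118-32953237, minus strand): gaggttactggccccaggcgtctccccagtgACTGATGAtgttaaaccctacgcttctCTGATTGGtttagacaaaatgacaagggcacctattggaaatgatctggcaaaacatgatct
HLA-DMB (chr6:32941049-32941168, minus strand): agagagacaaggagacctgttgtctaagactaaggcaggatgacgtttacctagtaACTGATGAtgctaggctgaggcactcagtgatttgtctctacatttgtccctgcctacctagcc
The X box letters were present in all 5 class II promoters and in 2.26% of the 35116 promoters in the table. The Y box letters were present in 4 of the 5, all but HLA-DMB, and in 3.97% of all promoters. Between the X and Y letters lay 18 bases in HLA-DRB1, HLA-DRB5 and HLA-DQB1, and 19 bases in HLA-DMA. Response element letters were found in HLA-DRB1, HLA-DRB5 and HLA-DMB, beginning 119, 163 and 152 bases before the start, and in 8.11% of all promoters. Those of HLA-DRB5 and HLA-DMB lie outside the stretches shown. The X box letters of HLA-DRB1 begin 75 bases before the annotated start and those of HLA-DRB5 119 bases before it. These letters come from the reference genome and not from the libraries, and a match is not a bound site.

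**Figure D2:**
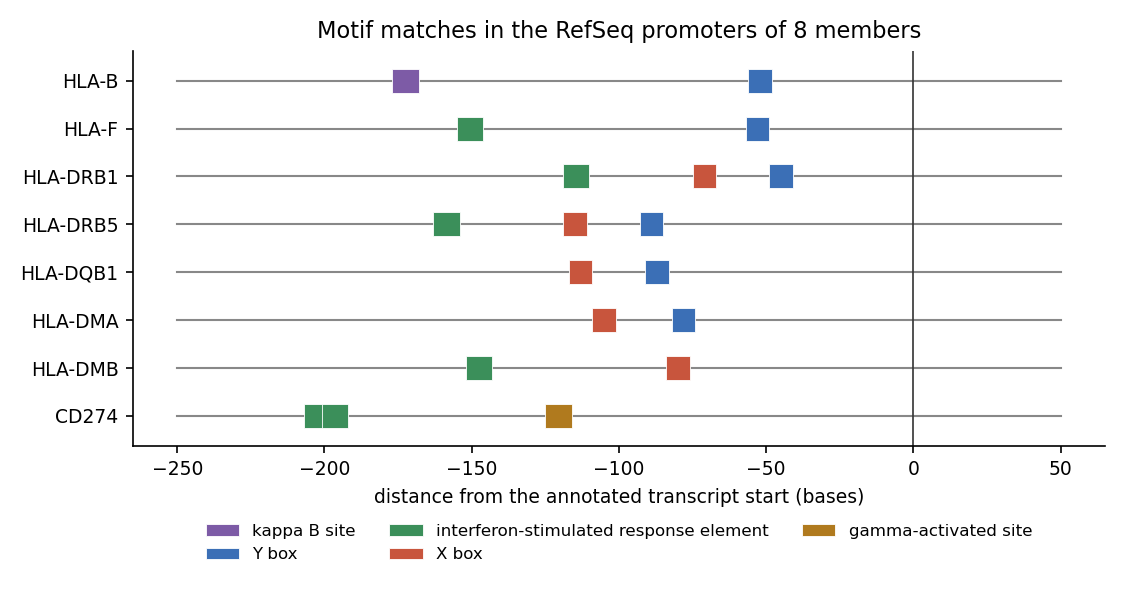
Matches to 5 motifs in the RefSeq promoters of 8 members, by distance from the annotated transcript start in bases; each line is 1 promoter and each block a match on either strand. X and Y boxes sit 18 or 19 bases apart in 4 class II promoters, HLA-B and HLA-F share a Y box match without an X box match, and CD274 has neither.

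The class I genes rose in ratios of means of 2.12 and 2.24 at very different levels. HLA-B (ENSG00000234745; chr6:31269491-31357188, minus strand, a gene model that overlaps HLA-C), a classical class I heavy chain, was at 189.27, 183.56 and 179.63 FPKM in HCC827 and at 409.09, 387.85 and 373.81 FPKM in HCC827_Er. Both lines were tight, and the means of 184 ± 4.85 and 390 ± 17.8 FPKM (SD, n = 3) stood in a ratio of 2.12. The log2 difference was 1.08 (SE 0.050, limma adjusted p = 1.32e-07), just past the 2-fold minimum. HLA-F (ENSG00000204642; chr6:29722775-29738528, plus strand), a non-classical class I gene, was at 16.20, 17.98 and 16.37 FPKM in HCC827 and at 40.93, 36.46 and 36.05 FPKM in HCC827_Er. Its log2 difference was 1.12 (SE 0.080, limma adjusted p = 1.74e-06), with a ratio of means of 2.24. With 5 as the added constant it was 0.97 and not called. HLA-B held between 90.9% and 92.1% of the FPKM of this pair in all 6 libraries. In the GENCODE 29 transcripts 2.00% of the 50-base windows of HLA-B also occur in HLA-C.

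The class I promoters are shown, from 190 (HLA-B) or 170 (HLA-F) to 40 bases before the start, because their matches differ from those of class II; capitals mark a kappa B site written GGGGATTCC, the response element and the Y box, each on either strand.
HLA-B (chr6:31357220-31357369, minus strand): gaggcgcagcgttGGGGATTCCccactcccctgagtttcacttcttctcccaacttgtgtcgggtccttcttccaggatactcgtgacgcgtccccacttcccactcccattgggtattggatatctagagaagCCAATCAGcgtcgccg
HLA-F (chr6:29723264-29723393, plus strand): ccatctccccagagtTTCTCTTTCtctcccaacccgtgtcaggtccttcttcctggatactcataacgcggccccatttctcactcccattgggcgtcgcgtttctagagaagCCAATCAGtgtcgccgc
Both hold the Y box letters on the opposite strand, beginning 56 and 57 bases before the start, and neither holds the X box letters. A missing match to these letters does not show that a box is absent. The kappa B letters were found in HLA-B alone of the 8 member promoters and in 0.285% of all promoters. They allow no other base and equal the stretch in HLA-B. Other forms of the site were not searched, so both values depend on the letters chosen. The response element letters were found in HLA-F, beginning 155 bases before the start, and not in HLA-B.

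CD274 (ENSG00000120217; chr9:5450503-5470566, plus strand) was at 6.51, 3.04 and 5.63 FPKM in HCC827 and at 16.80, 19.28 and 22.56 FPKM in HCC827_Er. Replicate 2 of HCC827 was the lowest, and no HCC827 library reached the HCC827_Er range. The means of 5.06 ± 1.80 and 19.5 ± 2.89 FPKM (SD, n = 3) stood in a ratio of 3.86. The log2 difference was 1.80 (SE 0.22, limma adjusted p = 5.27e-05), between those of HLA-DMA and HLA-DRA. CD274 has no 50-base window in common with an HLA gene.

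The distal part of the CD274 promoter, from 250 to 100 bases before the start, is shown because it holds motif matches of interferon-responsive factors; capitals mark matches to GAAANNGAA and to a gamma-activated site written TTCNNNGAA, which is bound by STAT dimers.
CD274 (chr9:5450292-5450441, plus strand): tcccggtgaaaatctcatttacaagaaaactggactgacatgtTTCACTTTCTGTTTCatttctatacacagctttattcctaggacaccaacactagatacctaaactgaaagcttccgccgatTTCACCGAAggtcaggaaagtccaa
A pair of response element matches on the opposite strand overlaps, beginning 207 and 201 bases before the start. The gamma-activated letters begin 125 bases before it, and occur in 7.66% of all promoters. No other member promoter held the gamma-activated letters.

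A list of 23 names around CD274 on chromosome 9p24 had 6 genes in the table, of which 2 were called higher and 1 lower (with sum rescaling 4 and 1, with 5 as the added constant 0 and 1). Over all tested genes 44.4% were called, so 3 of 6 is near the background. RLN2, a relaxin hormone gene, was at 0.833 ± 0.379 and 4.83 ± 0.941 FPKM, and SPATA6L at 0.997 ± 0.0643 and 4.54 ± 0.496 FPKM. GLDC, which encodes glycine decarboxylase, fell from 18.3 ± 1.92 to 2.69 ± 0.131 FPKM (SD, n = 3). JAK2 and PDCD1LG2, the gene of PD-L2, were not analysed here.

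Within a line the levels were ranked by FPKM, which is per length. Some HLA genes share reads, and how well the reads of each gene mapped is not known, so a rank is only approximate. In HCC827 the order of mean FPKM was HLA-B, HLA-F, HLA-DMB, HLA-DMA, CD274, HLA-DRB1, HLA-DRA, HLA-DRB5 and HLA-DQB1. Library ranges overlapped between HLA-DMB and HLA-DMA and between HLA-DMA and CD274. In HCC827_Er the order was HLA-B, HLA-F, HLA-DRB1, CD274, HLA-DMA, HLA-DMB, HLA-DRB5, HLA-DRA and HLA-DQB1, with overlap between HLA-DRB1 and CD274, HLA-DMA and HLA-DMB, and HLA-DRB5 and HLA-DRA. HLA-DRB1 thus stood below both HLA-DM genes in every HCC827 library and above both in every HCC827_Er library.

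Set against class I, class II took a larger share of the HLA FPKM in HCC827_Er. The summed FPKM of HLA-B and HLA-F was 201 ± 4.76 in HCC827 and 428 ± 20.3 in HCC827_Er, a ratio of 2.13. The 6 class II genes summed to 15.3 ± 2.61 and 64.2 ± 4.14 FPKM (SD, n = 3), a ratio of 4.20. Class II made up between 5.72% and 8.25% of the HLA sum in the HCC827 libraries and between 12.7% and 13.4% in those of HCC827_Er. A share within a library does not change when the library is scaled by 1 factor. The level of HLA-B was 105 ± 13.0 times that of HLA-DRB1 in HCC827 and 16.9 ± 0.903 times in HCC827_Er. The median log2 difference was 1.10 for the 2 class I genes and 1.93 for the 5 tested class II genes. The spread within class II was wide, from 0.82 for HLA-DMB to 3.12 for HLA-DRB1, and HLA-DMA and HLA-DMB lay beside the class I values. The mean difference of class II exceeded that of class I by 0.88 (SD 0.13 between libraries), but by only 0.12 (SD 0.074) with 5 as the added constant and by 1.52 with 0.1. The difference between the classes was not tested, since rows of a class share reads and the members were chosen with results in view.

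**Figure D3:**
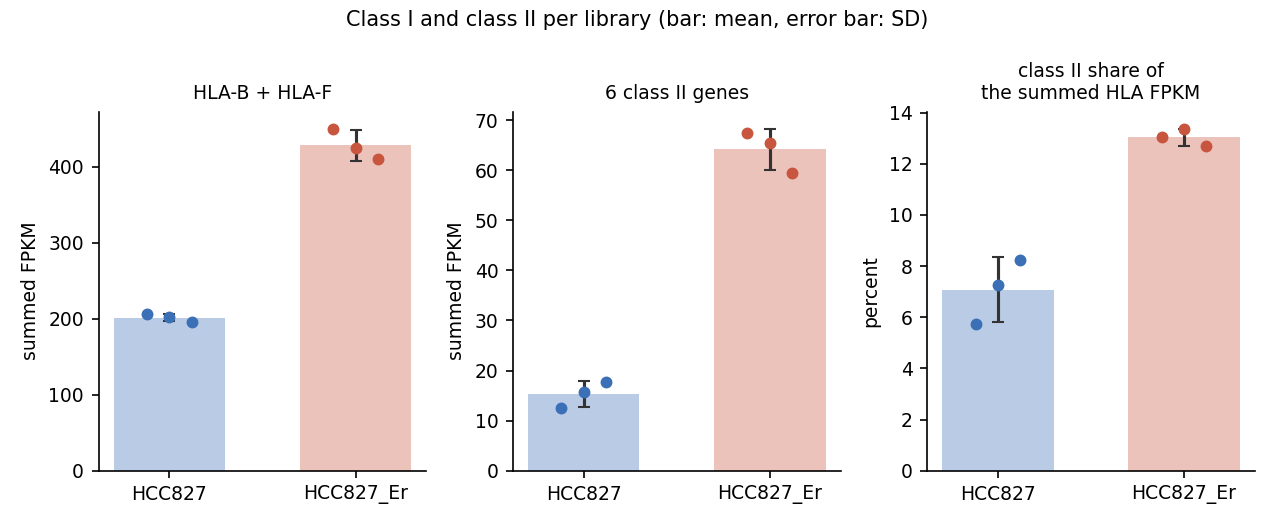
Summed FPKM of HLA-B and HLA-F, summed FPKM of the 6 class II genes, and the class II share of both sums in percent, by line; bars are means, error bars SD and points the 3 libraries. The class I sum was 2.13 times and the class II sum 4.20 times as high in HCC827_Er, and the class II share stood at 7.07% against 13.0%.

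The direction did not depend on scaling, but the class I calls did. Median-ratio rescaling moved all tested genes by a median of -0.30 on the log2 scale and sum rescaling moved them by 0.21. Over all tested genes 1304 were called higher and 1041 lower as deposited, 896 and 1657 with median-ratio rescaling, and 1825 and 794 with sum rescaling. After median-ratio rescaling 4 of the 8 tested members were called higher, HLA-DRB1, HLA-DRB5, HLA-DRA and CD274, where 17.0% of all tested genes were. HLA-B then stood at 0.74, HLA-F at 0.79 and HLA-DMA at 0.84, each under the 2-fold minimum. After sum rescaling all 8 were called higher, HLA-DMB at 1.04 included, where 34.6% of all tested genes were. With 5 as the added constant 4 of 8 were called higher, where 11.0% of tested genes were.

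**Figure D4:**
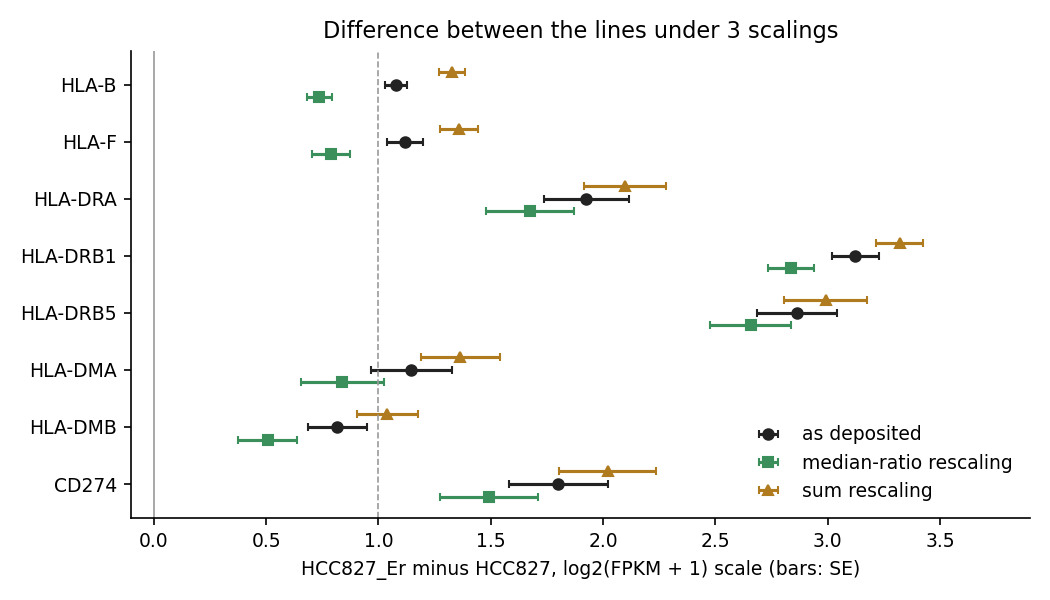
Log2 difference (HCC827_Er minus HCC827, on the log2(FPKM + 1) scale) of the 8 tested members as deposited and after 2 rescalings of the libraries; error bars are SE and the dashed line is the 2-fold minimum. All values are above 0, and HLA-B, HLA-F and HLA-DMA cross the minimum downward only with median-ratio rescaling, to between 0.74 and 0.84.

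Of 16 names of genes that process and load class I peptides, 4 were in the table, all 4 had a positive difference, and PSME2 was called higher (median 0.86, against 0.43 over all tested genes). Of all 5276 tested genes 2712 had a positive difference and 24.7% were called higher, so 1 call of 4 is near that share. PSME2, a subunit of the PA28 proteasome activator, stood at 156 ± 15.1 and 356 ± 10.7 FPKM (SD, n = 3; log2 difference 1.19, SE 0.070, limma adjusted p = 5.47e-07). PSME1, the other subunit, was at 139 ± 4.23 and 277 ± 3.37 FPKM (0.99), and was called higher without replicate 2 of HCC827 (1.02). The immunoproteasome gene PSMB8 (0.72) and the trimming peptidase gene ERAP2 (0.72) lay under the minimum. With median-ratio rescaling none of the 4 was called (PSME2 at 0.85), and with sum rescaling 2 were.

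Of 18 names of class II partners 7 were in the table, with 1 called higher and 2 called lower, where 24.7% and 19.7% of all tested genes were. CTSH, a lysosomal cathepsin, rose from 21.0 ± 1.73 to 61.8 ± 4.24 FPKM (log2 difference 1.51). CTSD and CTSL, cathepsins of the same compartment, fell, CTSD from 588 ± 29.4 to 252 ± 20.5 FPKM (-1.22) and CTSL from 120 ± 7.08 to 52.5 ± 3.31 FPKM (-1.18; SD, n = 3). Both calls were lost with sum rescaling (-0.97 and -0.93) and with quantile normalization (-0.94 and -0.93). CIITA, the class II coactivator, was at 0.97, 0.55 and 0.81 FPKM in HCC827 and at 2.20, 3.67 and 1.90 FPKM in HCC827_Er. Its groups did not overlap, and the ratio of means was 3.33. On the log2(FPKM + 1) scale, where the added 1 exceeds its HCC827 values, the difference of 0.99 (SE 0.19, limma adjusted p = 7.90e-04) lay just under the minimum. CIITA was called higher, at 1.01 to 1.13, when any of 4 libraries was left out (HCC827 replicates 1 and 3, HCC827_Er replicates 1 and 3). The gene was also called higher with sum rescaling (1.13) and with 0.1 as the added constant (1.59). CD74, the invariant chain that guards the class II groove, was at 3.51, 4.14 and 3.00 FPKM and at 7.13, 7.35 and 6.57 FPKM, a difference of 0.82 (SE 0.12). CTSS and CTSB, at 0.84 and 0.89, were not called either. With sum rescaling 5 of the 7 were called higher and none lower.

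Of 24 names of other checkpoint ligands and partners 11 were in the table and 9 were tested, with 4 called higher and 2 lower (with median-ratio rescaling 4 and 4; with 5 as the added constant 3 and 0). Over all tested genes 24.7% were called higher and 19.7% lower, and the 2 of 9 called lower are near that share. IDO1, an enzyme that degrades tryptophan and is induced by interferon, stood at 0.17, 0.20 and 0.00 FPKM in HCC827 and at 12.11, 13.83 and 14.93 FPKM in HCC827_Er (log2 difference 3.70). ICOSLG, the ligand of ICOS, rose from 1.83 ± 0.342 to 15.3 ± 0.875 FPKM (2.53). CEACAM1, a cell adhesion molecule, rose from 1.29 ± 0.239 to 11.6 ± 0.922 FPKM (2.47). VTCN1, which encodes the inhibitory ligand B7-H4, rose from 0.223 ± 0.122 to 3.83 ± 0.529 FPKM (1.98; SD, n = 3). The CD27 ligand gene CD70 (-1.31) and NECTIN3 (-1.40) were called lower.

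Of 25 names of interferon signalling 7 were in the table and 5 were tested, with 1 called higher and 1 lower. Their median log2 difference was -0.79, against 0.43 over all tested genes. Among all tested genes 24.7% were called higher and 19.7% lower, so the 2 calls of 5 are near the background. IRF8, a factor of myeloid cells, did not reach the minimum FPKM and is not in the median of the list. It was at 0.00, 0.05 and 0.12 FPKM in HCC827 and at 1.09, 1.98 and 0.65 FPKM in HCC827_Er. GBP5 was not tested either and went the other way. Its values were 0.41, 0.41 and 0.38 FPKM in HCC827 and 0.28, 0.08 and 0.25 FPKM in HCC827_Er. With no minimum FPKM, or one of 0.5, 2 of the list were called higher and 1 lower. IRF9, part of the complex that binds interferon-stimulated response elements, rose from 13.2 ± 0.816 to 45.9 ± 1.70 FPKM (log2 difference 1.72). The kinase gene JAK1 fell from 213 ± 6.11 to 104 ± 4.74 FPKM (SD, n = 3; -1.03), a call lost with sum rescaling (-0.79), with quantile normalization (-0.80) and without replicate 1 of HCC827_Er (-0.995). STAT3, SOCS3 and SOCS1 had negative differences and were not called, except STAT3 and SOCS3 with median-ratio rescaling (-1.13 and -1.16). Other names of this list, IRF1 and JAK2 among them, were not analysed here.

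**Figure D5:**
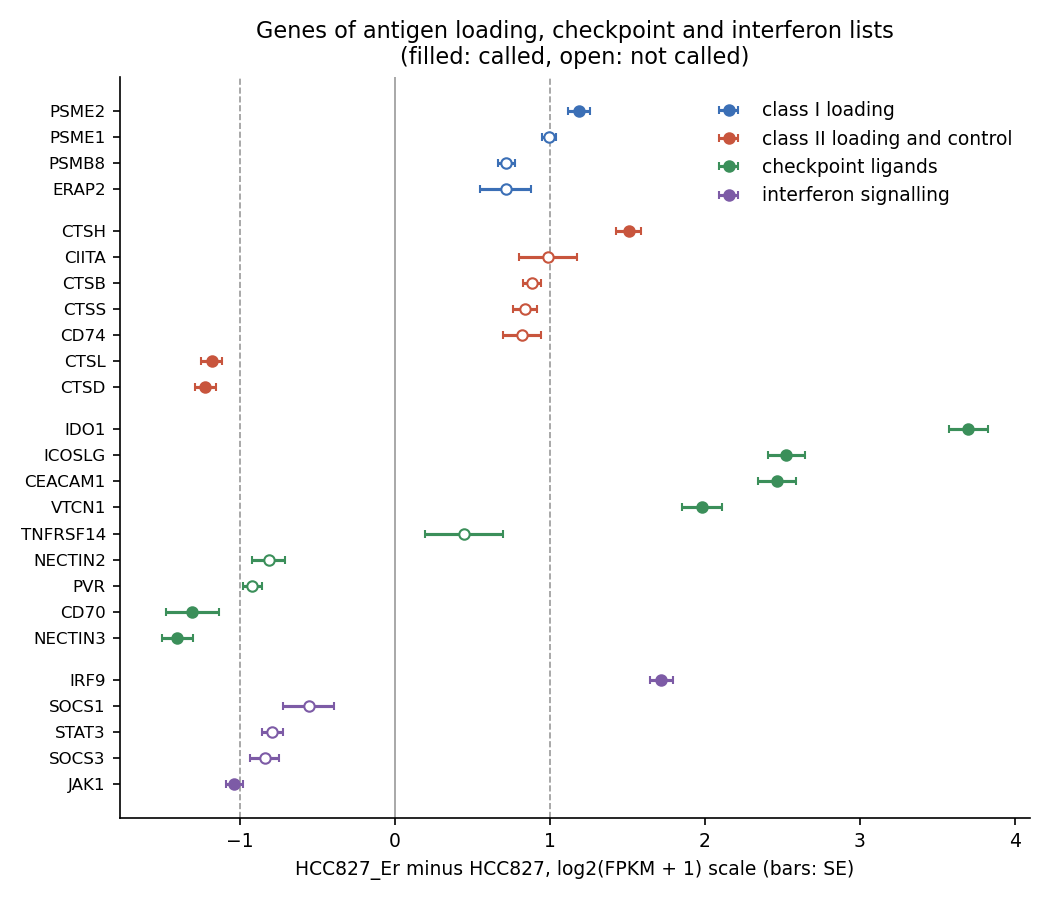
Log2 difference (HCC827_Er minus HCC827, on the log2(FPKM + 1) scale) of the tested genes of 4 lists; error bars are SE, filled points were called, open points were not, and dashed lines mark the 2-fold minimum. The class I loading genes all lie between 0.72 and 1.19, while the other lists hold values on both sides of 0.

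Among class I-like molecules and ligands of natural killer cells, 7 of 18 names were in the table, and AZGP1 alone of 5 tested was called (2 with median-ratio rescaling, 1 in each direction, and 2 higher with sum rescaling). Over all tested genes 44.4% were called. AZGP1, a secreted protein with a class I-like fold, rose from 4.89 ± 0.551 to 128 ± 3.99 FPKM (SD, n = 3; log2 difference 4.45). MICA, a stress ligand of the receptor NKG2D encoded within the HLA region, was at 14.47, 13.46 and 13.04 FPKM in HCC827 and at 8.18, 6.86 and 6.93 FPKM in HCC827_Er (-0.82, not called, but called lower with median-ratio rescaling at -1.13), opposite in direction to HLA-B.

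Since class II genes also mark immune cells, markers of leukocytes were read beside them. Of 24 names 7 were in the table, none of them at 0 in all libraries, and 5 of the 6 tested were called higher (1 with 5 as the added constant). Over all tested genes 24.7% were called higher, and 11.0% with 5 as the added constant. The 7 markers summed to between 174 and 180 FPKM in HCC827 and to less in HCC827_Er, between 134 and 147 FPKM. Most of that sum was CD68, a lysosomal protein of macrophages, at 174 ± 3.10 and 117 ± 4.36 FPKM (SD, n = 3; log2 difference -0.57, not called). The sum without CD68 went the other way, from between 3.29 and 3.93 FPKM to between 19.3 and 26.0 FPKM. ITGAM, the integrin chain CD11b, was lower in every HCC827_Er library (0.16 to 0.24 FPKM) than in HCC827 (0.70 to 1.22 FPKM), and was not tested. CSF1R, CORO1A, LAPTM5 and CD14 rose by 2.38, 2.35, 1.53 and 1.19 on the log2 scale, and CD14 was not called with quantile normalization (0.96). ITGAX (1.05) lost its call without replicate 1 of HCC827_Er (0.96), with median-ratio rescaling (0.84), with quantile normalization (0.79) and with 5 as the added constant (0.41). PTPRC, which encodes CD45, was not analysed here, and the part of leukocyte-type transcripts in the class II result was not tested. Of 14 names of lung epithelial markers 10 were in the table, and all but SFTPB were above 1 FPKM in every library of both lines. SFTPB was at 0.05, 0.00 and 0.59 FPKM in the HCC827 libraries. Of these 10 markers 9 were called higher, against 24.7% of all tested genes. EPCAM, NKX2-1, NAPSA and SFTPB rose by 3.25, 3.27, 3.16 and 5.09, the keratin gene KRT8 had a negative difference (-0.77, called lower with median-ratio rescaling at -1.11), and their part in the HLA result was not tested.

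Between the start of HLA-F and the end of HLA-DMA the table held 24 other protein-coding genes, a stretch chosen after the data had been seen. Of these 7 were called higher and 1 lower, with a median of 0.67. Over all tested genes 24.7% were called higher and the median was 0.43, so the 7 of 24 called higher are near the background. Most of the 24, 16 genes, were not called. SFTA2, a surfactant-associated gene, had the largest difference there (6.36), and APOM, the apolipoprotein M gene, was called lower (-1.39).

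The genes with the most similar profile over the 6 libraries, by root mean square distance of log2(FPKM + 1) after removal of each gene's mean, were sought for HLA-B and HLA-DRB1, the called members of each class with the highest mean over all 6 libraries, and for CD274. In HCC827 alone HLA-DRB1 was below both HLA-DM genes. For HLA-DRB1 they were SYTL1, PRSS8 and NOTCH3 (distances 0.051 to 0.085). For HLA-B they were RPS29, SAPCD2 and SHPK (0.023 to 0.032). For CD274 they were ARID3A, CHST4 and PRELID2 (0.185 to 0.189), a looser match than for the HLA genes. None of these 9 genes belongs to a list used here. With 6 libraries of 2 lines, a small distance mainly says that the difference between the lines is about the same.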

How the data were processed

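Libraries of 3 HCC827 and 3 HCC827_Er samples were made from total RNA with a TruSeq kit (labels' protocols). The values used are FPKM per gene and library, as the authors deposited them. fastp, HISAT2 and StringTie are named in the submitters' processing notes, with GRCh38.p14 and hg19 as builds without roles; the sources used here give no version, annotation or strand setting, so reads of HLA-F and its antisense gene cannot be told apart. Symbols matched 6636 of 6641 identifiers. Positions and transcripts came from GENCODE 29 on GRCh38, which need not be the authors' annotation.

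The FPKM were transformed to log2(FPKM + 1), an added constant that understates the change of low genes. The 5276 genes that reached 1 FPKM in 3 or more libraries entered limma 3.58.1 (R 4.3.3; lmFit, then eBayes with the mean-variance trend), and the line was the only term. With 3 libraries against 3 the smallest exact two-sided p is 0.1, and no such test was used. The steps were tested on simulated data. Members and lists were chosen with earlier results of these data known. Named genes were every member, up to 4 called genes per list with the largest differences (2 tested genes where none was called), and the 3 nearest profiles of HLA-DRB1, HLA-B and CD274. CIITA, CD74, ITGAX, CTSS, CTSB, PSME1, PSMB8, ERAP2, CD70, NECTIN3, MICA, STAT3, SOCS1, SOCS3, CD68, ITGAM, IRF8, KRT8, SFTA2, APOM and the genes under the other observations were named after their values were seen. Alternatives were other added constants and minima, 3 rescalings, 2 variance settings, no minimum difference, the replicate number as a block, summed HLA-DRB rows and each library left out.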

Additional observations from a re-analysis of the deposited data

How the results depend on the processing

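The number of called members, 7 as reported, was 4 with an added constant of 5 and 4 with median-ratio rescaling; it lay between 6 and 8 under the other alternatives, and between 6 and 7 when 1 library was left out. No member changed direction under any alternative run. The excess of class II over class I (mean log2 difference of the tested class II genes minus that of the class I genes, 0.88, SD 0.13 between libraries) moved with the constant, to 1.52 with 0.1 and 0.12 with 5. With these constants HLA-DRB5 stood at 4.78 and 1.29 and HLA-DMB at 0.90 and 0.58. HLA-B stood at 1.08 and 1.06 and HLA-F at 1.16 and 0.97. The cause of the excess itself was not tested. The excess was 0.66 with no minimum FPKM, 0.59 with quantile normalization, 0.73 with the HLA-DRB rows summed, and 0.79 to 0.96 with 1 library left out. With an added constant of 5, 579 tested genes were called higher and 506 lower. Over all lists 30 genes were called, 51 with no minimum difference, and 30 to 31 with 1 library left out. With the replicate number as a block 7 members were called as well, and 1304 genes higher and 1041 lower as without it. The labels do not say that the numbers pair samples. Deviations of same-numbered libraries correlated weakly, with r = 0.106, -0.022 and 0.049. The value of 0.106 was the highest between libraries of different lines, while replicate 2 of HCC827_Er correlated more with replicate 3 of HCC827. These values do not settle whether the samples were paired. FPKM keep no depth, so counting error is unknown, most of all for HLA-DQB1 and for HLA-DRB5 in HCC827.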

Other observations

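HLA pseudogenes and noncoding genes of the HLA region, which are no members, also had higher FPKM in every HCC827_Er library than in any HCC827 library. Of all listed genes 96.1% had no overlap, in either direction. HLA-V, HLA-F-AS1 and HCP5 were called higher, HLA-L and HCG27 were not, and HLA-K was not tested (limma). HLA-V, a class I pseudogene, was at 1.35, 1.69 and 1.12 FPKM in HCC827 and at 6.56, 6.02 and 8.99 FPKM in HCC827_Er. HLA-K, another pseudogene, was listed at 0 in all 3 HCC827 libraries and at 1.52, 1.48 and 0.72 FPKM in HCC827_Er. HLA-L was at 0.82, 0.80 and 0.83 FPKM and at 2.67, 1.55 and 1.12 FPKM. HLA-F-AS1, the antisense gene of HLA-F, was at 1.05, 0.56 and 0.35 FPKM in HCC827 and at 3.99, 2.95 and 2.23 FPKM in HCC827_Er, and without a known strand setting its reads and those of HLA-F cannot be told apart. The noncoding genes HCP5 and HCG27 of the same chromosome region stood at 2.03 ± 0.830 and 9.44 ± 0.396 FPKM, and at 0.353 ± 0.0839 and 1.62 ± 0.395 FPKM (SD, n = 3).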
